A study of Mus musculus with 28 samples.

Results

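The GIMAP genes encode GTPases of immunity-associated proteins, and 8 of them (Gimap1, Gimap3, Gimap4, Gimap5, Gimap6, Gimap7, Gimap8 and Gimap9) were followed here in mouse liver. They were taken by symbol from a table of read counts over 49585 annotated genes, and all 8 were found and passed the filter on low counts. The libraries came from livers of C57BL/6JOlaHsd mice of 5 to 7 months, with 7 mice of each sex in each of the genotypes WT and SIRT6-tg and 1 library per mouse. SIRT6-tg mice overexpress the deacylase SIRT6 throughout the body, from 1 transgenic line backcrossed to this strain, and WT mice were littermates without the transgene, so that both genotypes shared strain, chow diet and housing, and livers were taken after a short fast. The promoter that drives the transgene in this line is not given in the sources used here. The comparisons ask how a genotype that carries more SIRT6 alters the liver transcriptome in each sex.

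GIMAP proteins are GTPases of lymphocytes, many of them anchored to the membranes of lysosomes, the endoplasmic reticulum and other organelles, and several of them are needed for the survival of resting T and B cells. Loss of Gimap5 in mice or rats causes lymphopenia. Several family members are also expressed in endothelial cells, which line the liver sinusoids. A whole-liver library therefore reads these genes from minor cell types, and fewer cells of a type cannot be told apart from less RNA per cell in such a library.

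The family lies in 1 cluster. In the GRCm38 build the first to the last member span chr6:48647234-48770851, or 123.6 kb, in the order Gimap8, Gimap9, Gimap4, Gimap6, Gimap7, Gimap1, Gimap5 and Gimap3, with Gimap6 and Gimap3 on the minus strand and the other members on the plus strand. Promoter windows of 300 bases, from 250 before to 50 after an annotated start, were available from RefSeq for all 8 genes (GRCm38.p6, with 2 windows for Gimap8). The windows of 3 genes are shown because the results turn on them: Gimap7 and Gimap3, whose transcripts fell furthest in male SIRT6-tg liver, and Gimap9, whose transcript was not called lower. Sequences run 5′ to 3′ on the strand of the gene, and capitals mark matches, on either strand, to the letters of the motifs searched.
Gimap7 (chr6:48718371-48718670, plus strand): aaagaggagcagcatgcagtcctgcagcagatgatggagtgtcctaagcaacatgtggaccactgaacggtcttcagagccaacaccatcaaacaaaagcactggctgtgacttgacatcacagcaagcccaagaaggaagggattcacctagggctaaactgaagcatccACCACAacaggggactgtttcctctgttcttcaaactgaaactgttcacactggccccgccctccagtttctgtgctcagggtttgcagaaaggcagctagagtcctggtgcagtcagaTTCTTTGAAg
Gimap3 (chr6:48770802-48771101, minus strand): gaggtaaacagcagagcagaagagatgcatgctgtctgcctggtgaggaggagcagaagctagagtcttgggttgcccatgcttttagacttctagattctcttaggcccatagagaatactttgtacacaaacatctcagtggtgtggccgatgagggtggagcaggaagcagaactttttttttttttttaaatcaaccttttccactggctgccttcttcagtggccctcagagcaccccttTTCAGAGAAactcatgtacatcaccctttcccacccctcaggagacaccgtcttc
Gimap9 (chr6:48675885-48676184, plus strand): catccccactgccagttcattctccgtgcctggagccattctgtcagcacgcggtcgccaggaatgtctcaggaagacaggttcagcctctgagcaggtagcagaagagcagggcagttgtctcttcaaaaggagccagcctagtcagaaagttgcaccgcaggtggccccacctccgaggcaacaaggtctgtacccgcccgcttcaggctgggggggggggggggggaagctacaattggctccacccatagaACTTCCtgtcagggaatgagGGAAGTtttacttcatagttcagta

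The motifs searched were GGAAGT for ETS factors, TGTGGT for RUNX factors, TTCNNNGAA for STAT factors, TATAAA for the TATA box, and the interferon-stimulated response element, on both strands. The ETS and STAT letters can share bases, and no matches overlapped in the member windows. The ETS letters stood in 23.8% of all 32851 mouse windows and in windows of 4 of the 8 members (Gimap9, Gimap6, Gimap1 and Gimap5). The RUNX letters stood in 16.8% of all windows and in those of 3 members (Gimap4, Gimap7 and Gimap1). The STAT letters stood in 8.3% of all windows and in windows of 4 members (Gimap8, Gimap6, Gimap7 and Gimap3). The TATA letters were found in Gimap6 only, against 13.6% of all windows, and the interferon-stimulated response element in none of the member windows, against 3.44%. Gimap7 and Gimap3 thus both carried the STAT letters, as did Gimap8 and Gimap6, which fell by less. Gimap9 carried the ETS letters in 2 places, as did Gimap5, whose transcript fell in male SIRT6-tg liver. This is a description of these windows and says nothing about binding.

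Library totals ran from 18758863 to 35393069 counts, and 21583 genes were tested. Sirt6 counts were in the direction of the labels in all libraries, with a log2 fold change of 6.68 (SE 0.30) in males and 3.39 (SE 0.26) in females. The transgenic groups of the sexes thus differed in Sirt6 level, at a normalized count of 7461 ± 1467 (SD, n = 7) in males and 802 ± 331 in females, and sex and Sirt6 level cannot be told apart in a difference between the sexes. TMM normalization factors ranged from 1.06 to 1.17 (male WT) and from 0.821 to 0.993 (male SIRT6-tg). The median log2 fold change of all genes in males was 0.06 with TMM and -0.22 when libraries were scaled by their totals alone. In 7 libraries, spread over all 4 groups, the first principal component of the within-group deviations was high (score above 20), and 44.1% of the within-group variance lay on it.

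In males, GIMAP transcripts were lower in SIRT6-tg than in WT liver. Of the 8 members 7 were lower and 0 higher at an adjusted p under 0.05 (quasi-likelihood test of edgeR with Benjamini-Hochberg adjustment over all genes tested), where 11.0% of all genes tested were called lower and 9.68% higher. The median log2 fold change was -0.77 over the members and 0.06 over all genes. Summed over the family, CPM, which are counts relative to the TMM-scaled library size, fell from 70.9 ± 8.18 (SD, n = 7) in male WT to 46.3 ± 3.60 in male SIRT6-tg mice. The ranges, 60.9 to 82.6 and 40.3 to 50.6, did not overlap. The exception was Gimap9.

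**Figure D1:**
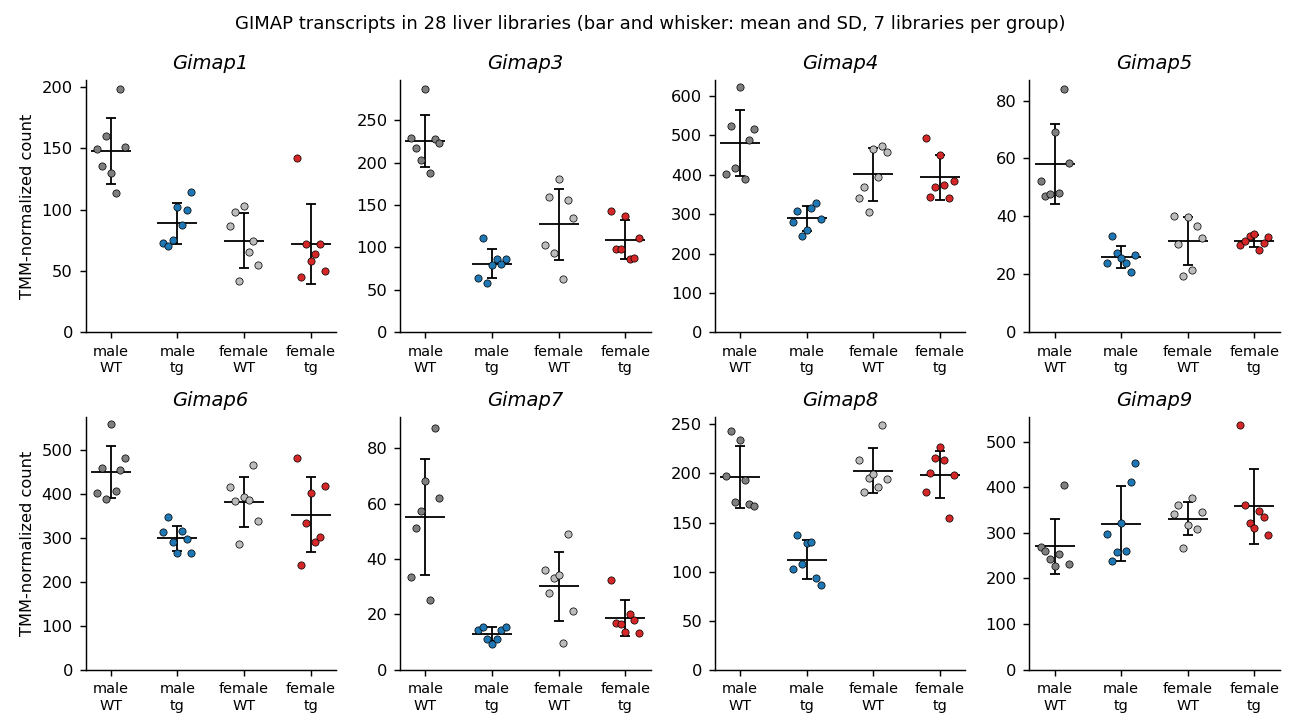
TMM-normalized counts (vertical axis, starting at 0) of the 8 GIMAP genes in each of the 28 liver libraries, by group, with the mean and SD of 7 libraries. In males the points of Gimap3, Gimap4, Gimap5, Gimap6, Gimap7 and Gimap8 separate by genotype, those of Gimap1 overlap slightly and those of Gimap9 overlap over most of their range, while the female groups overlap for all 8 genes.

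Gimap5, whose loss empties the peripheral lymphocyte pool, and Gimap3, its close paralog, were both among the members that fell by more than a log2 unit. Normalized counts of Gimap3 ran from 188 over a median of 223 to 286 in male WT and from 57.9 over 81.1 to 111 in male SIRT6-tg libraries. The log2 fold change was -1.48 (SE 0.18, adjusted p = 4.5e-07, edgeR), or 2.79-fold lower, and no transgenic male reached the lowest WT male. For Gimap5 the counts ran from 46.9 over 52.4 to 84.0 in male WT and from 20.8 over 25.8 to 33.2 in male SIRT6-tg libraries. It fell by 1.15 on the log2 scale (SE 0.17, adjusted p = 6.8e-06, edgeR), again with no overlap. The transcripts of these genes share sequence, since 7.52% of the 50-base words of Gimap3 and 4.53% of those of Gimap5 recur in the other, so that reads from those stretches map to both and were left out by a count of uniquely mapped reads; no other member shared a 50-base word with another.

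Gimap7, a GTPase that is active as a dimer, showed the lowest fold change of the family. Its normalized counts ran from 25.3 over 57.4 to 87.3 in male WT and from 9.28 over 14.2 to 15.5 in male SIRT6-tg libraries. Transgenic males were thus low in all 7 libraries, whereas WT males varied widely among themselves. The log2 fold change was -2.09 (SE 0.28, adjusted p = 1.9e-06, edgeR), or 4.26-fold lower. It rests on few reads, with deposited counts of 9 to 14 per library in male SIRT6-tg and 19 to 94 in male WT mice.

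Gimap4, which has been linked to T cell death, and Gimap6, which takes part in autophagy, had the highest read counts of the members that fell. Gimap4 ran from 389 over 487 to 622 in male WT and from 244 over 287 to 328 in male SIRT6-tg libraries. The log2 fold change was -0.73 (SE 0.12, adjusted p = 2.5e-05, edgeR). Gimap6 ran from 388 over 454 to 558 in male WT and from 265 over 296 to 346 in male SIRT6-tg libraries, and fell by 0.59 on the log2 scale (SE 0.13, adjusted p = 0.00094, edgeR). Neither gene overlapped between the genotypes, although both fell by less than a log2 unit. Gimap8, a longer family member with several GTP-binding domains, ran from 167 over 193 to 243 in male WT and from 85.9 over 107 to 137 in male SIRT6-tg libraries, and fell by 0.80 (SE 0.12, adjusted p = 8.3e-06, edgeR).

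Gimap1, needed for the maintenance of mature B and T cells, fell by 0.74 on the log2 scale in males (SE 0.20, adjusted p = 0.0090, edgeR). Its normalized counts ran from 113 over 149 to 198 in male WT and from 70.8 over 87.6 to 114 in male SIRT6-tg libraries, so that the highest transgenic male just passed the lowest WT male. Gimap1os, a transcript annotated on the opposite strand, and Gm28053, a read-through transcript, together cover 36% of the exon bases of Gimap1. The library kit does not mark strand, so reads of Gimap1 and Gimap1os in the shared stretch cannot be told apart. Gimap1os itself had a log2 fold change of -0.83 (SE 0.31), which missed the threshold (adjusted p = 0.051, edgeR).

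Gimap9, about which little is known, was the member that did not pass the test in males. Its normalized counts ran from 228 over 255 to 404 in male WT and from 238 over 297 to 454 in male SIRT6-tg libraries, and the groups overlapped over most of their range. The log2 fold change was 0.24 (SE 0.15, 95% interval -0.06 to 0.55, adjusted p = 0.27, edgeR), and it turned to -0.05 when libraries were scaled by their totals alone. Gimap9 and Gimap1 moved with the first component of the within-group deviations (Pearson r = 0.70 and 0.78 over 28 libraries), and its part in their results was not tested. With the 7 high libraries left out, the value of Gimap9 was 0.19 and that of Gimap1 was -0.80, and the number of members called lower in males was again 7.

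**Figure D2:**
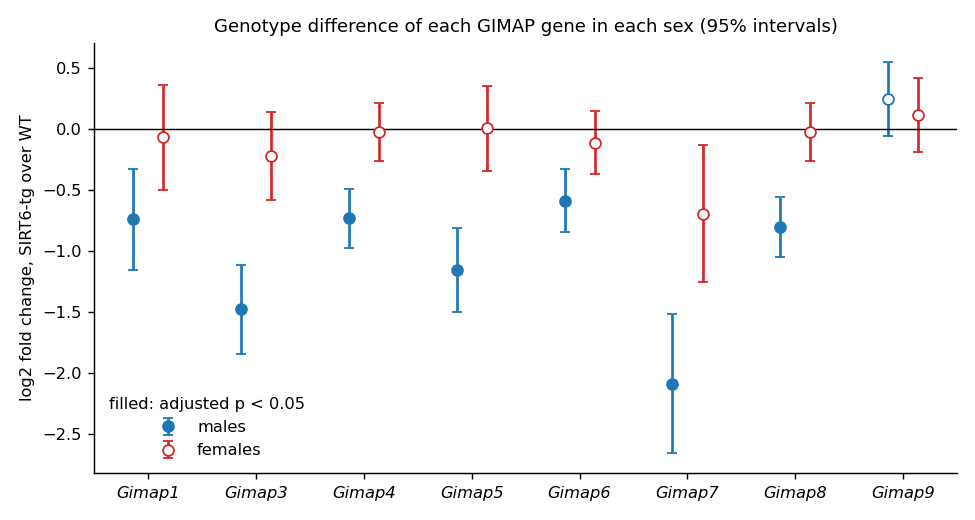
Log2 fold change of SIRT6-tg over WT (vertical axis) for each GIMAP gene in males (blue) and females (red), with 95% intervals from the fit over all 28 libraries; filled points have an adjusted p under 0.05. The 7 filled points are male values between -0.59 and -2.09, and the female intervals include 0 for all members but Gimap7.

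Within a library the genes of the family can be set against each other without any scaling between libraries. Gimap9 took 14.4 ± 2.81% (SD, n = 7) of all GIMAP counts in male WT and 25.9 ± 5.23% in male SIRT6-tg mice, and the shares overlapped (10.4 to 19.1% and 18.9 to 34%). The share of Gimap3 was 12.0 ± 0.89% and 6.55 ± 1.15%, with no overlap, and that of Gimap7 was 2.87 ± 0.89% and 1.05 ± 0.17%, again with no overlap. The shares of Gimap4 (25.4 and 23.5%) and Gimap6 (23.9 and 24.4%) lay close together. Relative to Gimap9 in the same library, the mean log2 ratio of read counts was lower in male SIRT6-tg than in male WT mice for each of the 7 other members, from -0.85 to -1.81 for Gimap1 and from -2.33 to -4.41 for Gimap7. These ratios did not overlap between the genotypes for Gimap1, Gimap3, Gimap5 and Gimap7, and overlapped for Gimap4, Gimap6 and Gimap8. Gimap9 was the member not called lower in males, so the lower ratios to it restate the fold changes and are not separate support.

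In females, none of the 8 members was called lower or higher by edgeR, where 0.00463% of all genes tested were called lower and 0.0232% higher, and the same held for DESeq2. At an unadjusted p under 0.05 there was 1 member, Gimap7, among 1212 genes. The median log2 fold change was -0.05 over the members and 0.00 over all genes. Normalized counts of Gimap7 ran from 9.64 over 33.3 to 48.8 in female WT and from 13.4 over 16.95 to 32.5 in female SIRT6-tg libraries, and the groups overlapped. The log2 fold change was -0.70 (SE 0.28, 95% interval -1.26 to -0.13, adjusted p = 0.70, edgeR).

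For the other members the female intervals were informative about size. Gimap4 ran from 305 over 395 to 473 in female WT and from 341 over 373 to 492 in female SIRT6-tg libraries, with a log2 fold change of -0.03 (95% interval -0.26 to 0.21). Gimap8 ran from 182 over 196 to 249.3 and from 155 over 201 to 227, with a log2 fold change of -0.03 (-0.27 to 0.21). These bounds are smaller in size than the male values of the same genes. Gimap3 ran from 63.2 over 135 to 181 in female WT and from 87.0 over 98.4 to 143 in female SIRT6-tg libraries (log2 fold change -0.22, 95% interval -0.58 to 0.14). Gimap5 counts were 31.5 ± 8.37 (SD, n = 7) and 31.5 ± 1.96, Gimap6 counts 381 ± 57.0 and 352 ± 85.1, Gimap1 counts 74.9 ± 22.5 and 71.8 ± 32.5, and Gimap9 counts 331 ± 36.5 and 358 ± 82.0. For Gimap1, Gimap3, Gimap5 and Gimap6 the female value was smaller in size than the male one, although missing the threshold does not show that the genotypes were alike.

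The difference between the sexes was itself tested. The genotype effect was lower in males than in females for 5 members (Gimap3, Gimap4, Gimap5, Gimap7 and Gimap8) and higher for 0, where 3.84% of all genes tested were called lower and 1.20% higher. The median difference of log2 fold changes was -0.74 over the members and 0.03 over all genes. For Gimap3 the difference was -1.26 (SE 0.25, adjusted p = 0.0027, edgeR) and for Gimap5 it was -1.16 (SE 0.24, adjusted p = 0.0036). For Gimap8 it was -0.78 (SE 0.17, adjusted p = 0.0048) and for Gimap4 it was -0.71 (SE 0.17, adjusted p = 0.0090, edgeR). These 4 genes held their call when any 1 library was left out. For Gimap7 the difference was -1.39 (SE 0.39, adjusted p = 0.033, edgeR), and the call was lost on leaving out 1 of 7 libraries (adjusted p from 0.051 to 0.063), namely male WT 4, 6 or 7, male SIRT6-tg 3, 4 or 5, or female SIRT6-tg 1. The differences of Gimap1 (-0.67, SE 0.29, adjusted p = 0.20), Gimap6 (-0.48, SE 0.18, adjusted p = 0.13) and Gimap9 (0.13, SE 0.21, adjusted p = 0.80, edgeR) missed the threshold.

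The sexes already differed in WT mice. Male WT exceeded female WT liver for 4 members, where 6.66% of all genes tested were called higher and 5.71% lower. Gimap1 was higher by 0.99 on the log2 scale (SE 0.21, adjusted p = 0.0013, edgeR), Gimap5 by 0.88 (SE 0.17, adjusted p = 0.00040), Gimap3 by 0.82 (SE 0.17, adjusted p = 0.0015) and Gimap7 by 0.87 (SE 0.26, adjusted p = 0.022). The ranges of Gimap1, Gimap3 and Gimap5 did not overlap between the sexes, whereas those of Gimap7 did, and its call was lost without male WT 6 (adjusted p = 0.063, edgeR). Gimap4 (0.26, adjusted p = 0.15), Gimap6 (0.24, adjusted p = 0.24), Gimap8 (-0.05, adjusted p = 0.86) and Gimap9 (-0.29, adjusted p = 0.22, edgeR) missed the threshold. Gimap4 and Gimap6 passed it when libraries were scaled by their totals alone (0.45, adjusted p = 0.014, and 0.44, adjusted p = 0.023, edgeR), and Gimap9 passed it as lower in males with the 7 high libraries left out (-0.33, adjusted p = 0.049).

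Among transgenic mice the order of the sexes was another one. Male SIRT6-tg liver was lower than female SIRT6-tg liver for Gimap8 (-0.82, SE 0.12, adjusted p = 8.8e-06, edgeR) and Gimap4 (-0.44, SE 0.12, adjusted p = 0.0064), both with ranges that did not overlap, and higher for 0 members, where 10.2% of all genes tested were called lower and 12.9% higher. Gimap3 was at -0.43 (SE 0.18, adjusted p = 0.083), Gimap7 at -0.53 (SE 0.30, adjusted p = 0.21) and Gimap5 at -0.28 (SE 0.17, adjusted p = 0.26, edgeR). Gimap1 was at 0.32 (SE 0.21, adjusted p = 0.29, edgeR), and without female SIRT6-tg 1, which held the highest Gimap1 count of its group, it was called higher in males (0.57, adjusted p = 0.021). Gimap3 was called lower without male SIRT6-tg 2 or without female WT 5 (adjusted p = 0.042 and 0.0496, edgeR). This comparison and the comparison of WT mice share groups with the genotype comparisons, so their values are not independent of those.

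Levels were compared between members per kb of exon. In male WT mice the order by mean log2 CPM per kb was Gimap4 (3.29), Gimap9 (2.62), Gimap6 (2.27), Gimap3 (1.72), Gimap8 (1.00), Gimap1 (0.86), Gimap7 (-0.21) and Gimap5 (-0.90). In male SIRT6-tg mice it was Gimap9 (2.85), Gimap4 (2.57), Gimap6 (1.69), Gimap3 (0.25), Gimap8 (0.20), Gimap1 (0.14), Gimap5 (-1.99) and Gimap7 (-2.06). Gimap9 and Gimap4 thus changed places, as did Gimap5 and Gimap7 at the low end. Both female groups ran Gimap6, Gimap8, Gimap3, Gimap1, Gimap7 and Gimap5 from the third to the eighth place, behind Gimap4 and Gimap9.

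Neighbours in this order were compared by an exact two-sided sign-flip permutation test within each group, 28 pairs in all, with 0.015625 as the smallest p that 7 libraries allow. Gimap4 exceeded Gimap9 in all 7 male WT libraries, by 0.67 on the log2 scale (adjusted p = 0.031, exact test). In male SIRT6-tg mice Gimap9 exceeded Gimap4 in 5 of 7 libraries, by a mean of 0.28 that missed the threshold (adjusted p = 0.13, exact test) and passed it with the length of the longest transcript (0.50, adjusted p = 0.029, exact test), and in the female groups the pair did not differ beyond its spread (0.10, adjusted p = 0.44, and 0.01, adjusted p = 0.88, exact test). Gimap3 exceeded Gimap8 in all 7 male WT libraries, by 0.72 (adjusted p = 0.031, exact test), and in 3 of 7 male SIRT6-tg libraries, by a mean of 0.05 (adjusted p = 0.72). Gimap9 exceeded Gimap6 in 6 of 7 male WT libraries, by a mean of 0.35 that missed the threshold (adjusted p = 0.069, exact test) and passed it with the longest transcript (0.45, adjusted p = 0.046). Also within their spread were Gimap8 over Gimap1 in male WT, Gimap8 over Gimap1 and Gimap5 over Gimap7 in male SIRT6-tg, Gimap8 over Gimap3 in female WT, and Gimap7 over Gimap5 in female SIRT6-tg mice. The place of Gimap1 depends on the length given to it, since its union of exons holds 3073 bases and its longest transcript 1614, and with the latter Gimap1 exceeded Gimap8 in both male groups.

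**Figure D3:**
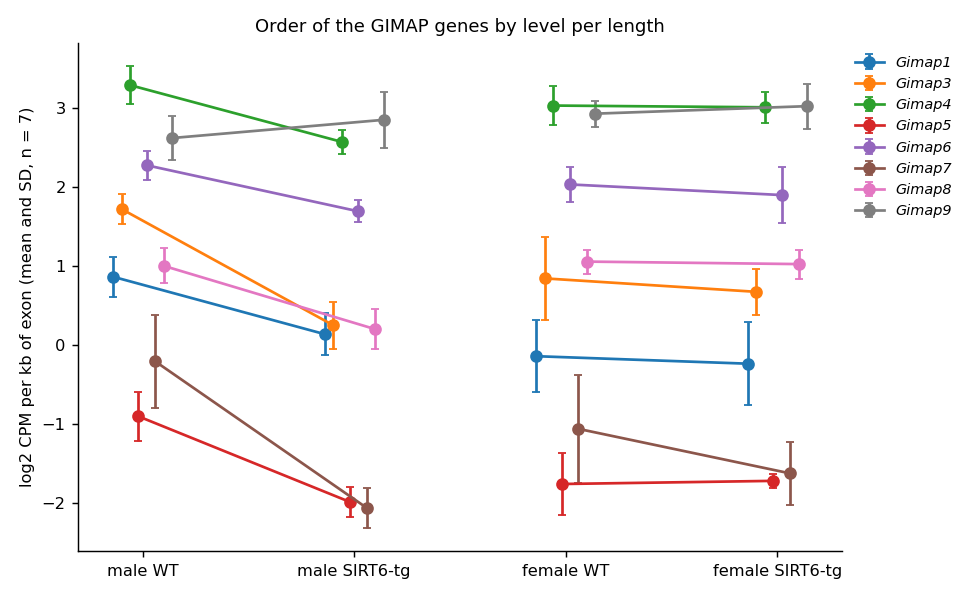
Mean log2 CPM per kb of exon (vertical axis) of each GIMAP gene in the 4 groups, with SD over 7 libraries; lines join the genotypes of a sex. Male lines slope down for 7 genes and up for Gimap9, which moves from 2.62 to 2.85, while female lines run nearly level apart from Gimap7.

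The genes around the cluster served as a reference for its position. Besides the members, 20 annotated genes lie between the first and last member or within 100 kb of either end, and 12 of them were tested. In males 1 of the 12 was called lower, where 11.0% of all genes tested were called lower. It was Tmem176a, which encodes a membrane protein, at -0.56 (SE 0.17, adjusted p = 0.019, edgeR). Its partner Tmem176b was at -0.49 (SE 0.19, adjusted p = 0.071, edgeR). On the other side Repin1, a zinc finger gene, was at 0.21 (SE 0.09, adjusted p = 0.11), and Rarres2, which encodes chemerin, was at 0.32 (SE 0.16, adjusted p = 0.18, edgeR). Gimap9 lies between Gimap8 and Gimap4, both of which fell, so the member that was not called stands inside the cluster and not at its edge. The 12 neighbours had a median of -0.52, which includes 4 low-count transcripts within the cluster. These 4, among them Gimap1os and the read-through Gm28053 (-1.22, SE 0.82, adjusted p = 0.32, edgeR), had values below -0.8 that missed the threshold. Outside the cluster the values ran from -0.82 for the low-count AI854703 (adjusted p = 0.16, edgeR) to 0.32 for Rarres2. Lrrc61 was at -0.20, Gm7932 at -0.001 and Zfp775 at 0.03. In females 0 of the 12 neighbours were called by edgeR, where 0.00463% of all genes tested were called lower and 0.0232% higher.

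**Figure D4:**
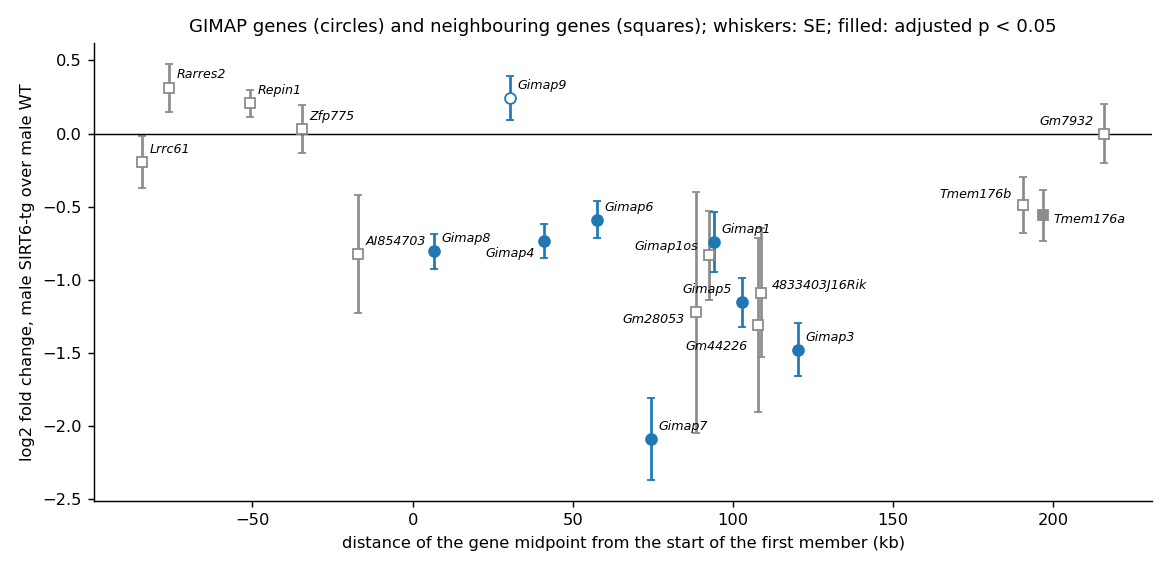
Log2 fold change of male SIRT6-tg over male WT (vertical axis, whiskers SE) against the distance of each tested gene's midpoint from the start of Gimap8 in kb, for the 8 members (blue circles) and 12 neighbours (grey squares); filled symbols have an adjusted p under 0.05. Filled members flank the open symbol of Gimap9, and outside the cluster only Tmem176a is filled.

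Marker genes of the cells that could carry GIMAP transcripts moved as follows in males, where 11.0% of all genes tested were called lower and 9.68% higher. Of 16 genes of the T cell receptor complex and T cells, 15 were lower in male SIRT6-tg liver and 0 higher, with a median log2 fold change of -2.10, and none was at 0 in any library. Their summed normalized count was 960 to 2238 (male WT) and 511 to 1317 (male SIRT6-tg), against 534 to 1487 (female WT) and 684 to 1184 (female SIRT6-tg). Zap70, a T cell kinase, was the exception at 0.68 (SE 0.29, adjusted p = 0.10, edgeR) and had the highest mean count of the list. Zap70 alone ran from 272 to 432 in male WT and from 297 to 992 in male SIRT6-tg libraries. It thus made up a large part of the summed count in transgenic males. Cd3e, a chain of the receptor complex, ran from 28 over 95.6 to 108 in male WT and from 9.28 over 12.7 to 18.9 in male SIRT6-tg libraries (-2.56, SE 0.27, adjusted p = 5.9e-08, edgeR). Lower counts in males were also called for 7 of 9 NK and cytotoxic genes (median -2.81), 5 of 10 B cell genes (-0.81), 9 of 10 pan-leukocyte genes (-1.52) and 11 of 11 macrophage and Kupffer cell genes (-1.20), with 0 higher in each list. Ptprc, the pan-leukocyte CD45, fell by 1.71 (SE 0.17, adjusted p = 3.2e-08, edgeR), and the summed pan-leukocyte count was 6161 to 10604 in male WT and 4014 to 4749 in male SIRT6-tg mice. Of the NK genes Ncr1 was at 0 in 2 libraries and Prf1 and Eomes in 1 each.

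Endothelial markers differed from these. Of 13 liver endothelial genes 1 was called lower in males, Pecam1 at -0.37 (SE 0.14, adjusted p = 0.0496, edgeR), and 0 higher, with a median of -0.13, and their summed count ran from 11973 to 15673 in male WT and from 11245 to 14543 in male SIRT6-tg libraries. The member median was -0.77, beside -0.13 for the endothelial, -0.75 for the neutrophil and -0.81 for the B cell list. The macrophage and Kupffer cell list was at -1.20, the pan-leukocyte list at -1.52, the T cell list at -2.10 and the NK list at -2.81. In females 0 genes of any of these lists were called by edgeR, where 0.00463% of all genes tested were called lower and 0.0232% higher. The female medians of the lists ran from -0.45 for the T cell list to 0.09 for the endothelial list. Among WT mice 13 of the 16 T cell genes and 7 of the 10 pan-leukocyte genes were higher in males than in females, and 0 of the 13 endothelial genes were called. Of all genes tested, 6.66% were called higher and 5.71% lower in male WT than in female WT liver. The part of any of these cell types in the GIMAP values was not tested.

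Set against the marker lists in the same library, the members fell into an uneven pattern. The mean log2 level of Gimap7 relative to the T cell list was -0.60 ± 0.19 (SD, n = 7) in male WT and -0.53 ± 0.25 in male SIRT6-tg mice, so Gimap7 and the T cell list fell by nearly the same amount. Gimap3 stood at 1.47 ± 0.37 and 1.93 ± 0.14, with overlap. Gimap5 stood at -0.46 ± 0.30 and 0.38 ± 0.29, also with overlap. Gimap1 rose against the T cell list from 0.87 ± 0.31 to 2.07 ± 0.26, Gimap4 from 2.55 ± 0.34 to 3.76 ± 0.16, Gimap6 from 2.47 ± 0.37 to 3.81 ± 0.27 and Gimap9 from 1.72 ± 0.45 to 3.88 ± 0.33, with no overlap for these 4 genes, which therefore fell by less than the T cell list or not at all. Gimap8 rose too, from 1.28 ± 0.54 to 2.40 ± 0.35, with overlap, and the means of Gimap3 and Gimap5 also rose. Relative to the endothelial list, Gimap4 moved from -0.93 ± 0.16 to -1.49 ± 0.16 and Gimap7 from -4.09 ± 0.49 to -5.78 ± 0.29, both with no overlap, whereas Gimap9 moved from -1.77 ± 0.30 to -1.37 ± 0.39, with overlap. These differences are log2 values that compare groups and carry no gene length.

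Variation among mice of the same group gave a further view, as correlations of within-group deviations over 28 libraries. They are given as a description, since all points share library depth and composition. Gimap7 followed the T cell list most (Pearson r = 0.84). Gimap3 was highest with the list of naive lymphocyte genes (0.80). It stood at 0.73 with the T cell list and at 0.74 with the pan-leukocyte list. Gimap4 followed the pan-leukocyte list most (0.79) and the endothelial list at 0.63, and Gimap6 followed the endothelial list most (0.75). Gimap8 followed none of the leukocyte or endothelial lists above 0.21, and Gimap9 was highest with the list of secreted hepatocyte proteins (0.71), which itself moved with the first component (0.79). Among the members Gimap4 and Gimap6 had the highest correlation (0.70), followed by Gimap1 and Gimap9 (0.66), and Gimap8 and Gimap9 the lowest (-0.52).

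**Figure D5:**
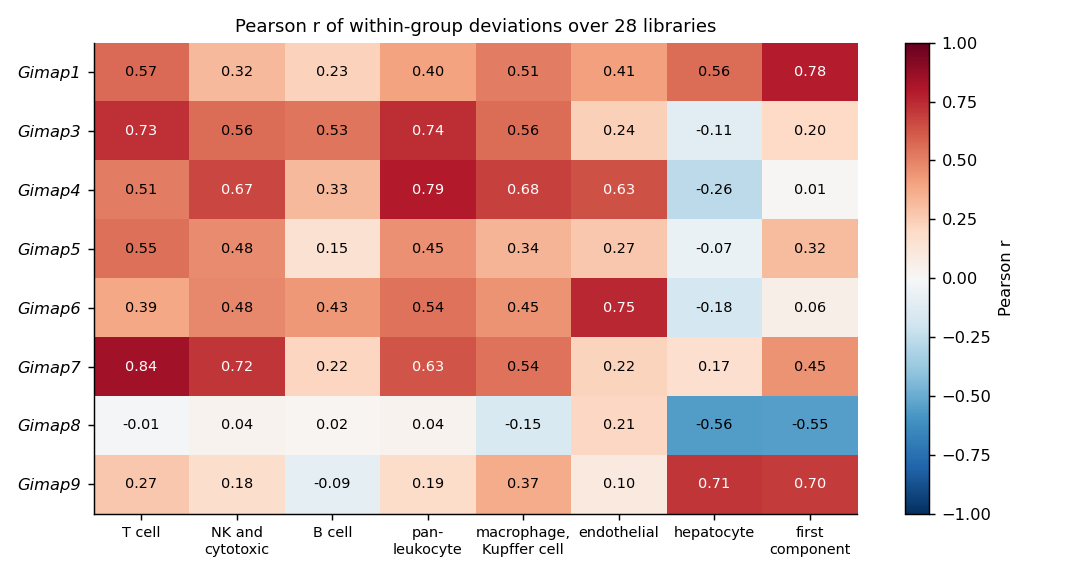
Pearson r, over 28 libraries, between the within-group deviation of each GIMAP gene (rows, log2 CPM) and that of the mean of each of 7 marker lists or the score on the first component (columns); the other lists are not drawn. Of the columns drawn, Gimap7 is highest in that of T cells (0.84), Gimap4 in the pan-leukocyte (0.79), Gimap6 in the endothelial (0.75) and Gimap9 in the hepatocyte column (0.71), and Gimap1 in that of the first component (0.78).

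Genes that vary with the family were ranked by the correlation of their within-group deviations with the mean of the 8 members, among 12254 candidates. Among the highest were Trpv2 (0.87), Stk17b (0.84), Cd300a (0.84), Arhgdib (0.83), Neurl3 (0.83), Hcls1 (0.82), Srgn (0.82), Clec12a (0.80) and Dok2 (0.80). In males these 9 genes were all called lower in SIRT6-tg liver by edgeR, where 11.0% of all genes tested were called lower. Their log2 fold changes ran from -0.78 for Stk17b to -1.56 for Clec12a. In females 0 of them were called, where 0.00463% of all genes tested were called lower and 0.0232% higher. The difference between the sexes passed the threshold for Clec12a (-1.33, adjusted p = 0.013) and Neurl3 (-0.80, adjusted p = 0.029, edgeR) among them. Of all genes tested, 3.84% were called lower in that difference.

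Lists of genes linked to GIMAP proteins gave unlike counts in males, where 11.0% of all genes tested were called lower. Of 13 genes of naive lymphocyte survival and recirculation 7 were lower in male SIRT6-tg liver and 0 higher, with a median log2 fold change of -0.43. Among them were 2 genes picked out after their values were seen. Il2rg, the shared cytokine receptor chain, was at -1.68 (SE 0.23, adjusted p = 2.4e-06, edgeR), and Ccr7, the homing receptor of lymph nodes, was at -1.34 (SE 0.29, adjusted p = 0.00088, edgeR). Il7r, the receptor for the survival cytokine IL-7, ran from 30.3 over 40 to 62.9 in male WT and from 11.3 over 18.3 to 34.3 in male SIRT6-tg libraries (-1.16, SE 0.26, adjusted p = 0.0016, edgeR). The most abundant genes of this list, S1pr1 (0.30, adjusted p = 0.069) and Foxo1 (0.18, adjusted p = 0.34, edgeR), did not pass. Of 10 GIMAP binding partners and Bcl2 family genes 1 was called lower in males, near the share of 11.0% of all genes tested. The median of the list was -0.06. The gene called was Bcl2, which was picked out after its value was seen, at -1.15 (SE 0.15, adjusted p = 1.1e-06, edgeR). Gabarap, of the autophagy protein family to which a binding partner of Gimap6 belongs, was at 0.31 (SE 0.13, adjusted p = 0.089, edgeR), beside the fall of 0.59 of Gimap6 itself.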

How the data were processed

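RNA of 28 livers was measured by single-end RNA-seq (NEBNext Ultra libraries, Illumina HiSeq). The authors aligned reads to mm10 with STAR 2.5.0a, retained reads that mapped uniquely and assigned these to genes of Gencode vM12 by HTSeq-count; the strand setting is not given in the sources used here. The authors deposited raw counts, 1 column per library, with no normalization, and 0 columns were unmapped. Groups came from the labels. Symbols and positions came from Gencode vM21 (GRCm38; 49326 of 49585 identifiers with a symbol).

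Genes with a mean size-factor-normalized count of 0.5 or more (21583 genes) were fitted in 1 model of 4 groups with edgeR 4.0.16 in R 4.3.3 (TMM, robust quasi-likelihood test, Benjamini-Hochberg adjustment, threshold 0.05), after the procedure was tested on simulated data. SE is the log2 fold change over the square root of F. Normalized counts are counts scaled to the mean effective library size. Log2 CPM used a prior count of 2, and list levels are means of it. Neighbouring members were compared by exact sign-flip permutation, adjusted over 28 pairs. The intervals cover the spread between mice, each sequenced once. A count of 0 allows up to 3 counts at 95% confidence, for counting error only. No 2 libraries of a group agreed within sampling noise (chi-square per gene at least 12.2).

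The members and gene lists were chosen with earlier results of these data known, and the text names all members, Sirt6, genes within 100 kb, the 10 genes most like the family, and the 2 most abundant genes of each list with Ptprc, Cd3e, Pecam1 and Il7r; some genes under this rule are not reported here, and others are named as picked out after their values were seen. Alternatives were RLE and upper-quartile scaling, library size alone, filterByExpr or no filter, DESeq2 1.42.0, only the 2 groups compared, the replicate number as a block, a prior count of 0.5, the longest transcript, and each library left out. Chosen after seeing the data were the first within-group component as a covariate, its 7 high libraries left out, and unshared exon length. Lists for neutrophils, erythroid, stellate, cholangiocyte, hepatocyte, pancreas and adipose genes and for other GTPase families are reported in the closing section. No protein sequences were used here.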

Additional observations from a re-analysis of the deposited data

Results flagged for a closer look

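For 5 members the genotype effect differed between the sexes in a test of the difference itself (edgeR, adjusted p under 0.05), with a log2 difference, male less female, of -1.26 for Gimap3, -0.71 for Gimap4, -1.16 for Gimap5, -1.39 for Gimap7 and -0.78 for Gimap8. Of all genes tested, 3.84% were called lower and 1.20% higher in this difference. The call of Gimap7 was lost on leaving out any 1 of 7 libraries (adjusted p from 0.051 to 0.063, edgeR). The transgenic groups of the sexes also differed in Sirt6 level, and sex and Sirt6 level cannot be told apart.

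Among 32 sets of 7 libraries, 1 for each member and group, 5 held a library far from the others of its group (Dixon's test, gap over range above 0.568), where chance gives about 1 in 20. Female SIRT6-tg 1 stood high for Gimap1 at a normalized count of 141.9, for Gimap7 at 32.5 and for Gimap9 at 537. Male WT 6 stood high for Gimap9 at 404, and male WT 4 for Gimap3 at 286. Female SIRT6-tg 1 and male WT 6 were among the 7 libraries high on the first within-group component, with scores of 40.7 and 49.3, and the part of that component in these values was not tested.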

How the results depend on the processing

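Over 38 alternatives, 28 of which left out 1 library, 7 members were called lower and 0 higher in males, and 0 in females. The 10 settings that kept every library, or dropped the 7 high ones, gave 392 member fold changes, of which 378 kept direction and side of the threshold where called; the cause of the changes was not tested. Members with a changed call in the difference between the sexes were Gimap1 (-0.98, adjusted p = 0.025) and Gimap6 (-0.77, adjusted p = 0.0093) with library size alone, Gimap1 with the first component as a covariate (adjusted p = 0.013), and Gimap7 with the 7 high libraries left out (adjusted p = 0.12, edgeR). Between the transgenic groups Gimap3 passed with upper-quartile scaling, library size alone and DESeq2 (adjusted p = 0.044, 0.039 and 0.048), and between WT groups Gimap7 missed with only the 2 groups (0.070), while Gimap4 (0.45, adjusted p = 0.014) and Gimap6 (0.44, adjusted p = 0.023) passed with library size alone.

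Scaling moved the balance of calls: genes higher made up 46.8% of calls in males with TMM, 35.7% with RLE, 26.2% with upper-quartile scaling and 4.89% with library size alone. In males, genes higher numbered 942 with upper-quartile scaling, 210 with library size alone (4083 lower), 989 with only the 2 groups and 4346 with the covariate. In females, DESeq2 called 20 lower and 24 higher, the 2 groups alone 1 higher, the covariate 17 lower and 30 higher, the 7 libraries left out 3 lower, and the replicate block 2 lower. For the difference between the sexes, genes higher numbered 149 with RLE, 117 with upper-quartile scaling, 26 with library size alone (1837 lower), 130 with no filter, 2207 with the covariate (1592 lower) and 117 with the 7 left out. Male WT against female WT gave 555 lower and 3657 higher with library size alone, 2722 and 2780 with the covariate, and 2024 and 3099 with the 7 left out; 1 member (Gimap9) was then lower with the covariate and with the 7 left out. Male SIRT6-tg against female SIRT6-tg gave 3594 lower and 4181 higher with the covariate and 3645 lower with the 7 left out, and 1 member (Gimap1) was higher in both. Leaving out 1 library gave 1098 to 2444 genes higher in males, the lowest without male WT 4, 1 to 8 lower and 2 to 12 higher in females, 110 to 433 higher for the difference between the sexes, and 0 to 1 members higher between the transgenic groups.

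In the order per length, 3 pairs differed in female WT mice with a prior count of 0.5 and 3 in female SIRT6-tg mice with the longest transcript. Gimap8 over Gimap1 reversed with the longest transcript (-0.56 in male WT and -0.64 in male SIRT6-tg) and with unshared exon length (-0.51 and -0.58). With 6 libraries the exact test was not repeated. The replicate block changed no member call. The labels do not say whether equal numbers mark paired mice. Same-numbered libraries correlated at -0.57 to 0.48 in females and -0.33 to 0.42 in males, which does not settle it. Depth limits Gimap7 and Gimap5 most, with 9 to 94 and 19 to 89 counts per library.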

Other observations

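Other GTPase families of immunity had lower medians than the GIMAP genes in male SIRT6-tg liver; the difference between families was not tested. Of 8 guanylate-binding proteins 8 were lower by edgeR, with a median log2 fold change of -2.63, and of 6 immunity-related GTPases 6 were lower, with a median of -2.18, beside -0.77 for the 8 GIMAP members and 0.06 for all genes. Of all genes tested, 11.0% were called lower in males. Both families are interferon-inducible. In females 0 members of either family were called, where 0.00463% of all genes tested were called lower and 0.0232% higher. The female medians were -0.05 and 0.27. The family members with the most reads were Gbp3 at -2.28 (SE 0.24), Gbp7 at -1.69 (SE 0.21), Irgm2 at -1.86 (SE 0.24) and Iigp1 at -1.60 (SE 0.26) in males.

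Lists of other tissue components gave smaller or mixed counts in males, where 11.0% of all genes tested were called lower and 9.68% higher. Of 12 secreted hepatocyte proteins 6 were higher and 0 lower (median 0.37), among them Alb, or albumin, at 0.35 (SE 0.11). Of 6 stellate cell genes 4 were lower (Lrat, Reln, Dcn and Des, median -0.42), of 5 neutrophil genes tested 1 was lower (Csf3r, -1.21), of 6 erythroid genes 1 was higher (Alas2, 0.42), and of 5 cholangiocyte genes 0 were called by edgeR. Of 5 pancreas genes 1 was lower (Ctrb1), and 4 of the 5 were at 0 in 17 or more libraries. Of 4 adipose genes 1 was lower (Plin1), and the list's most abundant gene Fabp4 was at -0.45 (SE 0.38). The genes named beside counts of the pancreas, adipose and stellate lists were picked out after their values were seen. In females 0 genes of these lists were called by edgeR, where 0.00463% of all genes tested were called lower and 0.0232% higher.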
